A study of Mus musculus with 36 samples.

Results

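The response of the diabetic kidney to lipoxin A4 (LXA4) and its analog benzo-LXA4 was measured by taking both compounds as a single treated side. That side held 12 of the 36 libraries of the series, 6 with each compound, and was compared with the 6 libraries of diabetic mice given vehicle. All libraries were made from kidney cortex RNA of male mice on a C57BL/6 background that lack ApoE, so every group, controls included, carries the ApoE deletion. The diabetic groups had received streptozotocin, which destroys the insulin-producing beta cells, at 55 mg/kg on 5 consecutive days from 6 weeks of age. Vehicle was 0.1% ethanol, LXA4 was dosed at 5 µg/kg and benzo-LXA4 at 1.7 µg/kg, all by intraperitoneal injection 2 times a week. In the intervention design that the labels describe, mice were followed for 16 weeks and dosed between weeks 10 and 16. Nondiabetic mice given vehicle, LXA4 or benzo-LXA4 made up the other 18 libraries. The labels give replicate numbers without naming the animals, so p-values measure the spread between these libraries, which may be in part technical.

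Lipoxins are lipid mediators made from arachidonic acid by lipoxygenases during the resolution of inflammation, and LXA4 acts through the receptor FPR2. Benzo-LXA4 is a synthetic analog in which a benzene ring stands in for part of the conjugated chain of LXA4. EGR1, the transcription factor named in the title of the study, is made within minutes of growth factor or stress signals and is bound by the corepressors NAB1 and NAB2. Because the doses differed, the responses to LXA4 and to benzo-LXA4 are given side by side below and the compounds were not compared with each other.

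Total counts in the 18 diabetic libraries ran from 8896193 to 35906294. LXA4 replicate 6 was the shallowest and stood apart, with 56.9% of its counts on ribosomal and other small structural RNA genes, against 1.97% to 5.94% in the other 17. That share was 8.10% ± 15.4 (SD, n = 12) on the treated and 3.01% ± 1.01 (SD, n = 6) on the vehicle side, by an exact two-sided permutation test p = 0.159. Without LXA4 replicate 6 the treated share was 3.66% ± 1.07 (SD, n = 11; exact permutation p = 0.238). The pooled comparison was therefore made with all 12 treated libraries and again with the 11 that remain without LXA4 replicate 6; values are for all 12 where nothing else is said. Markers of kidney cortex were present in every library: Lrp2, the endocytic receptor megalin of the proximal tubule, ran from 3190 to 5350 CPM (counts relative to the TMM-scaled library size), and Nphs1, which encodes podocyte nephrin, from 13.7 to 29.3 CPM. Apoe, the deleted gene, ran from 1.62 to 3.07 CPM over the 18 diabetic libraries.

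Under both lipoxins the diabetic cortex had less Egr1 and less of 7 other transcripts, among them Cbr1, Lrat, Kcnma1, Ddc and the globin Hbb-bs, and more of 34 transcripts, among them Lamb3, Mpp4, Insrr and Ngef. By the quasi-likelihood test of edgeR, 42 of 15726 genes, or 0.267%, had an adjusted p under 0.05, 34 of them higher (0.216%) and 8 lower (0.0509%). The 34 that rose ranged from 0.20 to 0.93 on the log2 scale with a median of 0.35, and the 8 that fell ranged from -0.46 to -1.18 with a median of -0.87. All 42 had the same sign and an unadjusted p under 0.05 in each compound's own comparison with vehicle, which was the condition set for a common response. LXA4 on its own had an adjusted p under 0.05 for 34 of the 42 and benzo-LXA4 for 0 of them. Over all genes, LXA4 alone had 56 such genes (0.356%), and benzo-LXA4 alone had 0 by edgeR with 888 at an unadjusted p under 0.05. The compounds' comparisons share their 6 vehicle libraries, and the pooled difference is the average of their own differences. A gene called in the pooled comparison was therefore likely in advance to meet the condition for a common response. That all 42 met it adds no support.

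Without LXA4 replicate 6, 85 genes passed (0.540% of 15728), 65 higher (0.413%) and 20 lower (0.127%), and they held all 42. The 34 risen genes then ranged from 0.19 to 0.96 on the log2 scale and the 8 fallen genes from -0.43 to -1.15. The common response was then 84 genes (0.534%). LXA4 alone then had 44 genes (0.280%) and benzo-LXA4 alone 8 (0.0509%), and 1 of the 85 genes, Atp2b2, passed in both compounds' own comparisons.

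The number of genes called depended on which libraries were kept, as the plot of called genes by library left out shows. No gene passed by edgeR when vehicle replicate 2 or vehicle replicate 3 was left out, although 1435 and 1317 genes then had an unadjusted p under 0.05. Leaving out vehicle replicate 5 left 4 genes, benzo-LXA4 replicate 5 left 14, LXA4 replicate 4 left 20, benzo-LXA4 replicate 1 left 23 and vehicle replicate 4 left 26. The count rose to 74 without vehicle replicate 1 and to 75 without LXA4 replicate 5. With LXA4 replicate 6 also left out, the range was 0 (vehicle replicate 3) to 182 (vehicle replicate 1). None of the 42 genes therefore kept its call in all 18 fits that left out 1 library. All 42 kept their sign in every fit that tested them, which their choice from mostly the same libraries makes likely in advance.

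**Figure D1:**
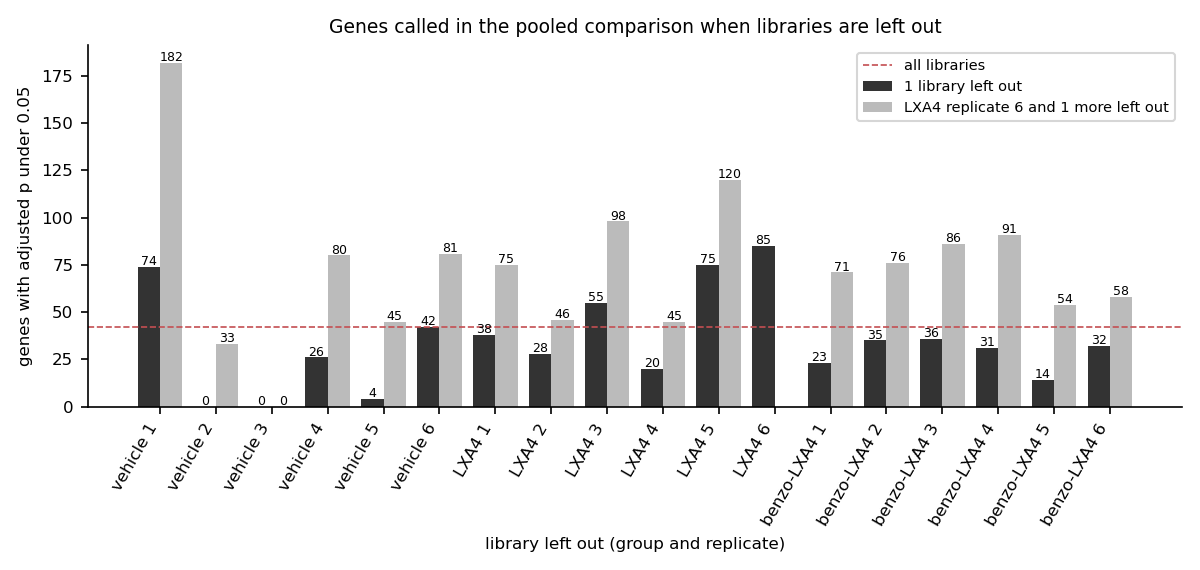
Number of genes with an adjusted p under 0.05 in the pooled comparison (y axis) when each diabetic library is left out (x axis), with the other 17 kept (dark bars) or with LXA4 replicate 6 left out as well (light bars). The dashed line marks the 42 genes called with all libraries. The count falls to 0 without vehicle replicate 2 or 3 and reaches 85 without LXA4 replicate 6.

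Of the 8 genes that fell, Egr1 alone had treated and vehicle libraries that did not overlap. It lies on chromosome 18 at 34859823-34864984 (GRCm38, GENCODE M21). Its level ran from 6.71 to 9.06 CPM in the diabetic vehicle libraries with a median of 7.32, from 1.65 to 3.71 CPM under LXA4 with a median of 2.57, and from 2.69 to 4.61 CPM under benzo-LXA4 with a median of 4.17. Every treated library lay below the lowest vehicle library. Pooled, Egr1 was 2.27-fold lower (95% interval 1.62 to 3.18; log2 -1.18, SE 0.24, adjusted p = 0.0246), and 2.23-fold lower without LXA4 replicate 6 (adjusted p = 0.0191). Each compound's own log2 difference was -1.43 for LXA4 (unadjusted p = 2.83e-05) and -0.93 for benzo-LXA4 (unadjusted p = 0.00242). The median in nondiabetic vehicle libraries was 3.82 CPM. Egr1 passed by edgeR in 15 of the 18 fits that left out 1 library, with a highest adjusted p of 0.103. With GC content offsets it did not pass (adjusted p = 0.0693).

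Egr1 was the only one of 27 measured immediate early genes to pass, in a list whose median log2 difference was 0.04 against 0.00 over all genes. At an unadjusted p under 0.05, 3 of the list were lower and 2 higher. Beside Egr1, these were the nuclear receptor gene Nr4a1 at -1.02 (adjusted p = 0.158), Fos, which encodes a subunit of AP-1, at -1.06 (adjusted p = 0.356), Klf2 at 0.63 (adjusted p = 0.135) and the phosphatase gene Dusp1 at 0.52 (adjusted p = 0.442; 0.33 without LXA4 replicate 6). Its corepressors had log2 differences of -0.10 for Nab1 (adjusted p = 0.705) and 0.08 for Nab2 (adjusted p = 0.87). Of 25 measured genes of the wider EGR1 network, none passed by edgeR, and 1 was higher and 3 lower at an unadjusted p under 0.05, as 5.90% and 5.00% of all genes were. Alox5, the lipoxygenase that takes part in lipoxin synthesis, had a log2 difference of -0.79 that did not pass (adjusted p = 0.197), and Ahr, a receptor reported to bind LXA4, one of 0.09 (adjusted p = 0.764). Egr2, Egr3, Fpr1, Fpr2 and Alox15 were looked for but were not among the genes tested, so they have no value here.

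Since Egr1 fell without overlap, the 250 bases before each RefSeq start were read for letters that EGR1 is known to bind. Of the 42 genes, 28 matched a window (GRCm38.p6). The letters GCGTGGGCG, on either strand, stood in no window of the 28, and in 1.18% of the genes tested that had a window. The form GCGGGGGCG, which can overlap the GC box GGGCGG, stood in 3 of the 23 matched genes that rose (Cbfa2t3, Pitpnm2 and Ptpn1) and in 0 of the 5 that fell, against 5.36% of the genes tested; by window, 2.57% of all 32851 held it. The windows of Cbfa2t3 (chr8:122678176-122678425, minus strand) and Pitpnm2 (chr5:124249761-124250010, minus strand) are shown because both are among the named genes that rose. They are written 5′ to 3′ along the gene, with those letters in capitals, on the gene's strand in Cbfa2t3 and on the opposite strand in Pitpnm2. The form GCGGGGGCG holds only G and C. The longest transcripts of the 34 genes that rose had a median GC content of 55.4%, against 49.4% over all genes. Whether base composition bears on the matches was not tested. A match is a description of the letters and not a bound site.
Cbfa2t3: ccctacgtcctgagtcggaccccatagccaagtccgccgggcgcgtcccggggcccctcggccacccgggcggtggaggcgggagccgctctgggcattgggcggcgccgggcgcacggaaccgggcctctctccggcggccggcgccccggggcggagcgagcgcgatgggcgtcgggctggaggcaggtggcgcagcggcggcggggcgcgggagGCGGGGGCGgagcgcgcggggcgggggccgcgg
Pitpnm2: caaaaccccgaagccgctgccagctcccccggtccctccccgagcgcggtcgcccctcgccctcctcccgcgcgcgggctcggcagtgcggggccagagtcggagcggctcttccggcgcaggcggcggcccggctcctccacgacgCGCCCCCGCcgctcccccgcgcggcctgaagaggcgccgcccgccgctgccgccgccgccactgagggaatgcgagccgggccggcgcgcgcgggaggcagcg

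Some of the named genes that rose encode regulators of transcription or an adaptor of cyclin-dependent kinases. Zbtb40, which encodes a zinc finger protein with a BTB domain, separated the sides completely. It ran from 25.9 to 36.9 CPM in vehicle libraries (median 33.4), from 39.4 to 65.6 CPM under LXA4 (median 46.0) and from 38.8 to 44.5 CPM under benzo-LXA4 (median 44.2). It was 1.40-fold higher with and without LXA4 replicate 6 (adjusted p = 0.0224 and 0.0127). Cbfa2t3, a corepressor of the ETO family, rose by 0.44 on the log2 scale (adjusted p = 0.0419) and Cables1, an adaptor of cyclin-dependent kinases, by 0.40 (adjusted p = 0.0319); in both, the lowest treated and the highest vehicle libraries overlapped. Without LXA4 replicate 6 the differences were 0.43 and 0.39.

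Other named genes that rose have roles in adhesion and cell structure. Lamb3 encodes a chain of an epithelial basement membrane laminin. Its vehicle libraries ran from 6.95 to 11.4 CPM (median 8.95), against 12.1 to 24.3 CPM under LXA4 (median 16.4) and 11.1 to 18.7 CPM under benzo-LXA4 (median 13.4). Only the lowest benzo-LXA4 libraries lay within the vehicle range. Lamb3 was 1.72-fold higher (1.36 to 2.16; adjusted p = 0.0335), and 1.70-fold higher without LXA4 replicate 6; of 11 measured laminin chains it was the only one to pass. Plekha7, an adherens junction protein, rose by 0.38 on the log2 scale (adjusted p = 0.0419). LXA4 replicate 6, at 608 CPM, was far above the other LXA4 libraries, and the difference was 0.30 without it (adjusted p = 0.0127). Mpp4, a membrane scaffold of the guanylate kinase family, rose by 0.78 (adjusted p = 0.0419) from a vehicle median of 4.51 CPM. LXA4 replicate 6 was its lowest library at 3.07 CPM, and the other 11 treated libraries all lay above the vehicle range. Tacc2, a coiled-coil protein of centrosomes and microtubules, rose by 0.40 (adjusted p = 0.0419).

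The rest of the named genes that rose include genes of signalling and transport. Ngef encodes ephexin, an exchange factor for small GTPases downstream of Eph receptors. It ran from 63.5 to 74.1 CPM in vehicle libraries (median 69.2), from 84.9 to 125 CPM under LXA4 (median 101) and from 78.9 to 104 CPM under benzo-LXA4 (median 98.5). The treated and vehicle libraries did not overlap, and the nondiabetic vehicle median was 104 CPM. Ngef was 1.44-fold higher (1.25 to 1.66; adjusted p = 0.0224), and 1.41-fold without LXA4 replicate 6. Insrr, the insulin receptor-related receptor that senses alkaline pH on intercalated cells, was 1.48-fold higher (adjusted p = 0.0461), and 1.52-fold higher without LXA4 replicate 6. Its benzo-LXA4 libraries ran from 30.0 to 38.2 CPM against 14.8 to 32.7 CPM with vehicle, and LXA4 replicate 6 was the lowest LXA4 library at 19.4 CPM. Vehicle replicates 3, 4 and 5 were the lowest with vehicle, at 17.4, 14.8 and 17.4 CPM, against 25.1 to 32.7 CPM in the other vehicle libraries. Atp2b2, a plasma membrane calcium pump, was 1.42-fold higher (adjusted p = 0.0335), and without LXA4 replicate 6 its 11 treated libraries no longer overlapped the vehicle libraries. Pitpnm2, a phosphatidylinositol transfer protein, rose by 0.38 (adjusted p = 0.0224). Ctif, which links the nuclear cap-binding complex to the start of translation, rose by 0.35 with no overlap between the sides (adjusted p = 0.0224). Fam169b rose by 0.43 (adjusted p = 0.0335).

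Enzymes, an ion channel and a globin were among the genes that fell. Cbr1 encodes carbonyl reductase, which uses NADPH to reduce quinones and prostaglandins. Its vehicle libraries spread from 13.8 to 69.7 CPM (median 27.7), while LXA4 libraries ran from 8.03 to 22.9 CPM (median 15.4) and benzo-LXA4 libraries from 13.5 to 21.3 CPM (median 14.6). Of the 6 vehicle libraries, replicates 3, 4 and 5 lay above every treated library and the other 3 within the treated range. Cbr1 was 2.27-fold lower (1.58 to 3.26; adjusted p = 0.0381), and 2.20-fold lower without LXA4 replicate 6 (adjusted p = 0.0338). Lrat, which makes the retinyl esters that store vitamin A, was 2.10-fold lower (adjusted p = 0.0397), from a vehicle median of 4.38 CPM to 1.77 CPM under LXA4 and 2.25 CPM under benzo-LXA4, and 2.06-fold lower without LXA4 replicate 6. The sides overlapped at the lowest vehicle libraries, which began at 2.96 CPM.

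Kcnma1 encodes the pore of the large-conductance potassium channel that secretes potassium in the distal nephron. It ran from 86.1 to 162 CPM with vehicle (median 129), from 52.0 to 106 CPM under LXA4 (median 67.4) and from 45.9 to 100 CPM under benzo-LXA4 (median 78.5). Only the highest treated libraries reached the lowest vehicle libraries. Vehicle replicates 3, 4 and 5 were the highest, at 149, 131 and 162 CPM, against 86.1 to 127 CPM in the other vehicle libraries. Kcnma1 was 1.67-fold lower (adjusted p = 0.0401), and 1.65-fold lower without LXA4 replicate 6. Ddc, the decarboxylase that makes dopamine in proximal tubule cells, was 1.43-fold lower with and without LXA4 replicate 6 (adjusted p = 0.0469 and 0.0399); of 9 genes of renal dopamine synthesis and breakdown it was the only one to pass. Wbp5, a small protein of the transcription elongation factor A-like family, fell by 0.57 (adjusted p = 0.0224), by -0.56 for LXA4 and -0.57 for benzo-LXA4, and by -0.56 pooled without LXA4 replicate 6. Vehicle replicates 3, 4 and 5, the same libraries that were high for Cbr1, were also the highest for both of these genes. They stood at 82.6, 101 and 101 CPM for Ddc, against 64.5 to 72.3 CPM in the other 3 vehicle libraries and at most 74.7 CPM in the treated, and at 21.1, 21.9 and 23.8 CPM for Wbp5, against 12.3 to 16.1 CPM and at most 15.1 CPM. Smim3, a small membrane protein, fell by 0.46 (adjusted p = 0.0419), and by 0.43 without LXA4 replicate 6.

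Hbb-bs, an adult beta globin of red blood cells, was 2.01-fold lower (adjusted p = 0.0461), and 1.91-fold lower without LXA4 replicate 6 (adjusted p = 0.0432). Its reads can be shared with the near-identical copy Hbb-bt, so the split between them is uncertain. Of 10 erythroid markers 6 were lower at an unadjusted p under 0.05, where 5.00% of all genes were, and Hbb-bs alone passed. The summed level of the 10 ran from 407 to 585 CPM with vehicle, 194 to 459 CPM under LXA4 and 229 to 420 CPM under benzo-LXA4. Fewer cells of a type and less RNA per cell cannot be told apart in bulk tissue. Among markers of other cells the cortex sample could hold, 24 myeloid markers summed to a median of 531 CPM with vehicle, 528 CPM under LXA4 and 559 CPM under benzo-LXA4, and none passed by edgeR, with 0 higher and 2 lower at an unadjusted p under 0.05. Markers of fat and of the urothelium and inner medulla had larger list medians. Of 15 adipose markers, 1 was higher and 0 lower at an unadjusted p under 0.05 in diabetic mice, with a median of -0.50 pooled (-0.47 without LXA4 replicate 6), 0.79 for LXA4 and -1.98 for benzo-LXA4. In nondiabetic mice 8 of the 15 were higher, where 1.20% of all genes were, with a median of 2.45. Adipoq, the adipocyte hormone adiponectin, was at 0 in the lowest library of each diabetic group and reached 1.47 CPM with vehicle, 2.55 CPM under LXA4 and 0.15 CPM under benzo-LXA4, against 37.4 CPM in the highest nondiabetic benzo-LXA4 library. Of 15 urothelium and inner medulla markers none was higher or lower at an unadjusted p under 0.05 in diabetic mice, with a median of 0.70 (0.75 without LXA4 replicate 6), and -0.78 in nondiabetic mice. The part of these cells in the response was not tested.

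**Figure D2:**
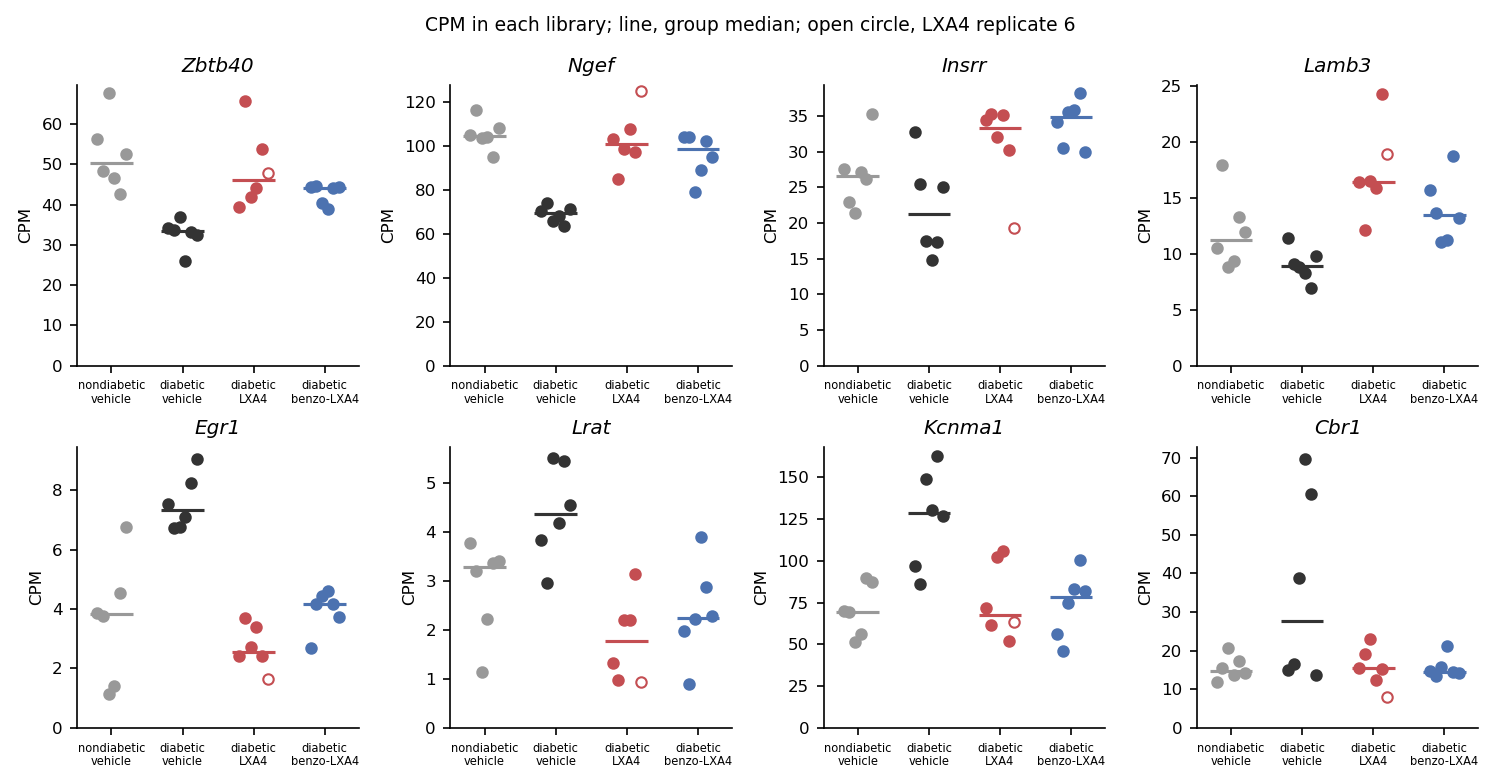
CPM (y axes, from 0) of 8 genes of the common response in each library of the nondiabetic vehicle, diabetic vehicle, diabetic LXA4 and diabetic benzo-LXA4 groups (6 points a group; lines, group medians; open circle, LXA4 replicate 6). Zbtb40, Ngef and Egr1 separate the 12 treated from the 6 diabetic vehicle libraries, and 3 vehicle libraries carry the Cbr1 difference.

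The other 19 called genes all rose and had not been named for their size of change. Of these, 1600010M07Rik (0.93 on the log2 scale, the largest rise of all 42) and 4732471J01Rik (0.42) were passed over because the rule leaves out symbols of that provisional kind, and the rest had smaller differences than the named genes. Zmiz1, a coactivator related to the PIAS proteins, had the lowest p of all and ran from 314 to 390 CPM with vehicle against 401 to 490 CPM over the treated libraries, with no overlap. Rptor, the scaffold of an mTOR kinase complex, differed by 0.22 on the log2 scale, also with no overlap. The same held for the actin-binding protein gene Ablim1 (0.30), the inositol phosphatase gene Inpp5b (0.31), the polarity scaffold gene Dlg5 (0.32), and for Aim1, Arhgef10 and 4732471J01Rik. In all, 13 of the 42 genes had treated and vehicle libraries that did not overlap, as 0.216% of all genes did. In 37 of the 42, all 12 treated libraries lay beyond the vehicle mean on the side of the change. The test that chose the 42 used these same libraries, so that count is a description and adds no support. Ptpn1, the phosphatase that acts on the insulin receptor, rose by 0.32 (adjusted p = 0.0335), and Sik1, a salt-inducible kinase, by 0.32 (adjusted p = 0.0414).

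**Figure D3:**
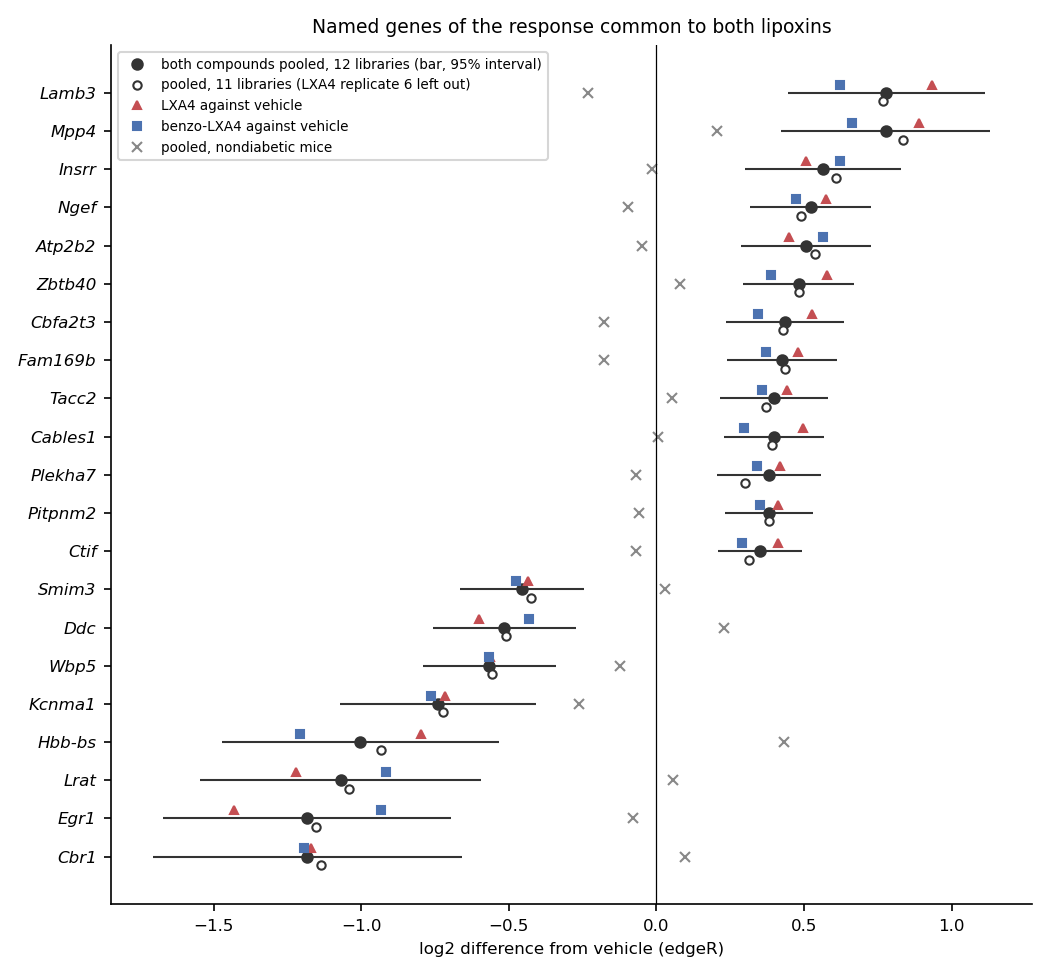
Log2 difference from diabetic vehicle (x axis) for 21 named genes of the common response: both compounds pooled with the 95% interval (filled circles and bars), pooled without LXA4 replicate 6 (open circles), LXA4 alone (triangles), benzo-LXA4 alone (squares) and both compounds pooled in nondiabetic mice (crosses). LXA4 and benzo-LXA4 lie on the same side of 0 for every gene, by the rule that chose them. The nondiabetic values lie on both sides of 0. Over all 34 risen genes, including those not drawn, 25 were negative and 9 positive.

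The nondiabetic mice gave a reading of the same genes in libraries that were on neither side of the comparison that chose them, although all 36 libraries shared the estimate of spread in the fit. There, 12 lipoxin libraries were compared with 6 vehicle libraries in the same way, and no gene passed by edgeR, by DESeq2 or by voom with quality weights, with 518, 600 and 820 at an unadjusted p under 0.05. Of the 34 genes that rose in diabetic mice, 9 had a positive and 25 a negative nondiabetic difference, with a median of -0.05. The 8 that fell had a median of 0.04. At an unadjusted p under 0.05 there was 1 of the 42, against 3.29% of all genes: 1600010M07Rik, at -0.47, opposite in sign to its 0.93 in diabetic mice. Egr1 had a nondiabetic difference of -0.08, Lamb3 of -0.23 and Ngef of -0.10.

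The difference between the diabetic and the nondiabetic effect was tested as an interaction. No gene passed by edgeR, with 1517 (9.65%) at an unadjusted p under 0.05 and a lowest adjusted p of 0.107, while DESeq2 called 41 and voom 50. Without LXA4 replicate 6 the edgeR count was 4 (0.0254%). Among them were Lmf1 (interaction 0.29, adjusted p = 0.0424), Kdm4b (0.45, adjusted p = 0.0424) and Stra6l (-1.09, adjusted p = 0.0462), all 3 named after their values were seen. Leaving out vehicle replicate 4 also gave 4, and leaving out LXA4 replicate 5 gave 1. Lmf1 is needed for the maturation of lipoprotein lipase, and Kdm4b encodes a histone lysine demethylase.

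Several of the genes had also differed between diabetic and nondiabetic vehicle mice, a comparison that uses the same 6 diabetic vehicle libraries, so its values are given beside the lipoxin values and nothing is read from their signs. Of the 42, 11 passed there, where 5.57% of all genes did. Zbtb40 differed by -0.68 with diabetes (adjusted p = 9.47e-05) and by 0.48 with the lipoxins. Treated diabetic mice differed from nondiabetic vehicle mice by -0.19 (adjusted p = 0.154). Ngef differed by -0.61 with diabetes (adjusted p = 0.000918), and the treated diabetic libraries differed from nondiabetic vehicle by -0.09 (adjusted p = 0.597). Egr1 differed by 1.04 with diabetes (adjusted p = 0.0258), and treated diabetic libraries from nondiabetic vehicle by -0.14 (adjusted p = 0.776). Kcnma1 differed by 0.83 with diabetes (adjusted p = 0.00929) and Cbr1 by 1.21 (adjusted p = 0.0174). The diabetes differences of Mpp4, Cables1 and Tacc2 were 0.00, -0.05 and -0.05, and treated diabetic libraries exceeded nondiabetic vehicle by 0.78, 0.34 and 0.35 (adjusted p = 0.00366, 0.0061 and 0.00921). Over all genes, the treated diabetic libraries differed from nondiabetic vehicle in 1954 genes, or 12.4% (3608, or 22.9%, without LXA4 replicate 6), 16 of the 42 among them.

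Gene lists were read for the lipoxin response by their counts and medians beside those of all genes. Over all genes the median log2 difference was 0.00, and 5.90% were higher and 5.00% lower at an unadjusted p under 0.05. Of 19 core clock genes, 4 were higher and 0 lower at an unadjusted p under 0.05, with a list median of 0.13 (4 higher, 0 lower and 0.15 without LXA4 replicate 6). Per2, a clock repressor, had a log2 difference of 0.78 that did not pass (adjusted p = 0.14; 0.0538 without LXA4 replicate 6), and Arntl, which encodes the activator BMAL1, one of 0.33 (adjusted p = 0.783). In Arntl, LXA4 replicate 5 stood at 80.7 CPM against 5.29 to 22.4 CPM in the other LXA4 libraries. Of 14 clock output genes none passed by edgeR, and 5 were higher and 0 lower at an unadjusted p under 0.05, with a median of 0.21 (6 higher, 0 lower and 0.21 without LXA4 replicate 6, where 6.14% of all genes were higher and 6.66% lower). By compound, the core clock median was 0.23 for LXA4 and 0.02 for benzo-LXA4. The clock output median was 0.44 for LXA4 and 0.06 for benzo-LXA4. When in the day the tissue was collected is not stated in the sources used here.

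In the lists of the distal nephron, more members were higher than lower. Of 24 distal convoluted tubule and loop of Henle markers none passed with all libraries, 5 were higher and 1 lower at an unadjusted p under 0.05, and the median was 0.07; without LXA4 replicate 6, 7 were higher and 1 lower. Klhl3, an adaptor for the turnover of WNK kinases, differed by 0.33 (adjusted p = 0.0571) and passed without LXA4 replicate 6 (0.34, adjusted p = 0.0313). The thiazide-sensitive sodium chloride cotransporter gene Slc12a3 differed by 0.36 (adjusted p = 0.148) and Wnk4, a kinase that controls it, by 0.27 (adjusted p = 0.364). The member that was lower was the claudin gene Cldn16, at -0.45 (adjusted p = 0.136). By compound, the median of this list was 0.002 for LXA4 and 0.106 for benzo-LXA4, and that of the collecting duct list 0.118 and 0.122. Among 22 collecting duct markers Insrr passed, 5 were higher and 0 lower at an unadjusted p under 0.05, and the median was 0.15 (6 higher, 0 lower and 0.17 without LXA4 replicate 6); Scnn1b, a subunit of the epithelial sodium channel, differed by 0.25 (adjusted p = 0.292). Of 43 proximal tubule markers, 1 passed (Ddc, lower), and the median was 0.00.

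In the lists of ribosomal proteins and of the antioxidant response, more members were lower than higher. None of 75 cytosolic ribosomal protein genes passed by edgeR, but 15 were lower and 0 higher at an unadjusted p under 0.05 with a median of -0.21, and 26 were lower without LXA4 replicate 6 with a median of -0.17. Of 34 targets of NRF2, the transcription factor of the antioxidant response, none passed, 9 were lower and 0 higher at an unadjusted p under 0.05, and the median was -0.13; without LXA4 replicate 6, 11 were lower and 0 higher. Gsta2, a glutathione transferase gene, had the lowest p of these (-0.73, adjusted p = 0.192), and Nqo1, a quinone reductase gene, differed by -0.62 (adjusted p = 0.292). For Gsta2, vehicle replicates 3, 4 and 5 stood at 123, 155 and 143 CPM. The other vehicle libraries ran from 55.0 to 77.7 CPM and the treated libraries from 21.7 to 115 CPM. Among 44 histone methyltransferase and demethylase genes none passed with all libraries, and 9 were higher and 1 lower at an unadjusted p under 0.05; Kmt2d, a histone methyltransferase gene, passed without LXA4 replicate 6 (0.30, adjusted p = 0.0285). Lists of extracellular matrix (44 genes), cytokines and NF-kB targets (25) and tubular injury (24) had no called gene by edgeR, with 2, 2 and 0 higher and 5, 3 and 2 lower at an unadjusted p under 0.05; without LXA4 replicate 6 none was higher and the same numbers were lower.

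**Figure D4:**
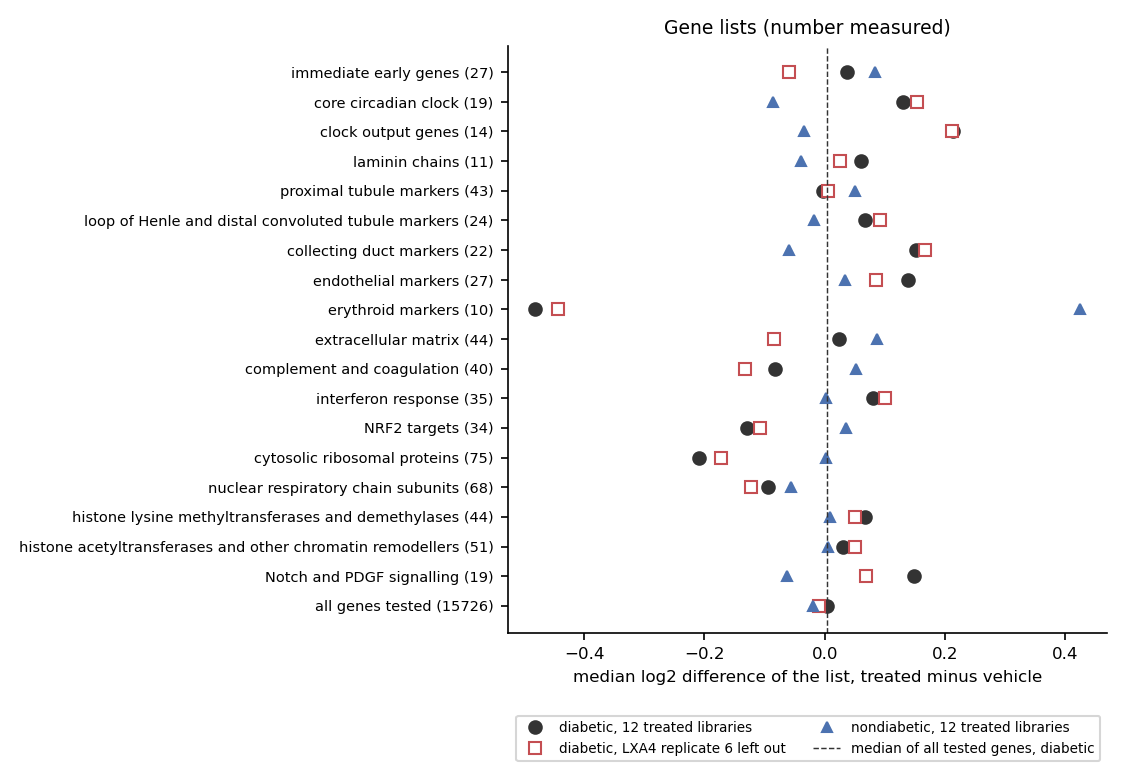
Median log2 difference between lipoxin and vehicle (x axis) for 18 gene lists and all tested genes (number measured in parentheses) in diabetic mice with 12 treated libraries (circles), in diabetic mice without LXA4 replicate 6 (squares) and in nondiabetic mice (triangles). Of the lists drawn, erythroid markers lie lowest in diabetic mice at -0.48 and highest in nondiabetic mice at 0.42, while most lie within about 0.2 of the median of all genes, drawn as a dashed line. The adipose and the urothelium and inner medulla lists, whose medians lie farther out, are not drawn.

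The base composition of the transcripts moved with the response. The longest transcripts of the 34 genes that rose had a median GC content of 55.4% and a median length of 5779.5 bases, against 49.4% and 3228 bases over all genes. Across 15688 genes, which share the same libraries, the pooled log2 difference had a Spearman correlation with GC content of 0.37, or 0.20 without LXA4 replicate 6, and of -0.25 in nondiabetic mice. The median difference rose from -0.08 in the tenth of genes with the lowest GC content to 0.14 in the tenth with the highest, and from -0.05 to 0.05 without LXA4 replicate 6. When a GC content trend was removed from each library, no gene passed by edgeR, with 1510 at an unadjusted p under 0.05. Without LXA4 replicate 6 the same step left 38 genes, 30 higher and 8 lower, of which 17 were among the 42.

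**Figure D5:**
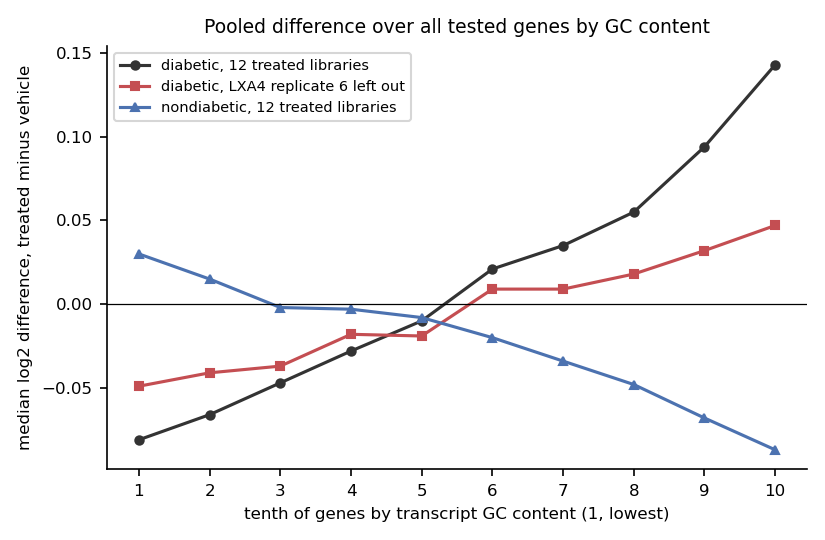
Median log2 difference between lipoxin and vehicle (y axis) over tested genes sorted by transcript GC content into 10 equal sets (x axis), in diabetic mice with 12 treated libraries (circles), in diabetic mice without LXA4 replicate 6 (squares) and in nondiabetic mice (triangles). The diabetic lines rise from -0.08 to 0.14 and from -0.05 to 0.05, and the nondiabetic line falls.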

How the data were processed

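Total RNA of kidney cortex went through ribosomal RNA removal and a directional kit, from 200 ng, as the labels' protocols state. The authors' deposited table holds whole-number counts for 15730 genes in 36 libraries. Per the submitters' processing notes, bcl2fastq 2.17.1.14, STAR and featureCounts were used with build GRCm38; the strand setting of the counting, among others, is not given in the sources used here. Groups come from the sample labels. All 36 libraries entered 1 edgeR 4.0.16 fit in R 4.3.3 (TMM scaling, filterByExpr on the 6 groups, robust quasi-likelihood fit, 1 mean per group), and contrasts of group means were tested. The pooled effect is the average of the LXA4 and benzo-LXA4 means minus the vehicle mean. Adjustment was by Benjamini-Hochberg over every gene tested in a comparison, with a threshold of 0.05 and no minimum fold. Intervals are 95% intervals of the fit, and depth enters through the count model. No library pair held identical counts (highest correlation 0.9938). The fit was tested on simulated data, with 50 genes changed at each size. It recovered 10% of them at a log2 size of 0.3, 54% at 0.6, 84% at 1 and 94% at 1.5, with 7 false calls. The simulated libraries shared 1 set of mean levels. Neither the make-up of LXA4 replicate 6 nor a GC content trend was therefore simulated.

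The genes named are a fixed panel, the 15 largest rises and falls of the common response (8 had fallen; genes with Gm, Rik or pseudogene symbols were passed over) and the leading members of each list, of which some are not reported here; the members, the lists and the tests were chosen with earlier results of these data known. Positions, transcript length and GC content are from GENCODE M21, in which 15697 of the gene IDs were found, and promoter windows are from RefSeq (GRCm38.p6). The alternatives were the size factors and the test of DESeq2 1.42.0, voom with quality weights (limma 3.58.1), other filters, structural RNA genes left out, the replicate number as a block, diabetic libraries alone, the treated libraries as 1 group, and each library left out. GC content offsets and the combinations with LXA4 replicate 6 left out were added after the data were seen.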

Additional observations from a re-analysis of the deposited data

Results flagged for a closer look

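Groups of 6 libraries were checked for a highest or lowest value set apart from the rest by more than 0.625 of the group's range, in 76 reported genes and the structural RNA share over the 3 diabetic groups, 231 checks in all. For independent values with a normal spread, chance gives about 1 in 20. The checks share libraries and use CPM of chosen genes, so that rate may not hold here. In these checks 22 values were set apart. LXA4 replicate 6 accounts for most of them. Its structural RNA share was 56.9%, its Gm26917 level 798000 CPM and its mt-Nd6 level 2650 CPM, against at most 5.94%, 23100 CPM and 309 CPM in the other LXA4 libraries. Among the genes of the common response it was high for Plekha7 (608 CPM) and low for Insrr (19.4 CPM). Of the other reported genes it was high for Pkd1 (160 CPM), Ccnd3 (189 CPM), Acss2 (355 CPM) and Nab2 (15.8 CPM), and low for Ctnnb1 (190 CPM), Nab1 (20.5 CPM) and Snhg12 (1.89 CPM).

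The remaining values set apart were spread over other libraries. With vehicle, replicate 1 was high for Plekha7 (348 CPM) and replicate 4 for the deubiquitinase gene Usp2 (190 CPM). Under LXA4, replicate 2 was high for the heat shock gene Hspa1a (31.8 CPM), and replicate 5 for Arntl (80.7 CPM) and the aldose reductase gene Akr1b3 (138 CPM against at most 18.2 CPM in the other 5). Under benzo-LXA4, replicate 4 was high for Cbr1 (21.3 CPM) and Gsta2 (115 CPM), replicate 5 for the complement gene C4b (38.1 CPM) and replicate 6 for Smim3 (6.31 CPM) and Alox5 (1.16 CPM).

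The pooled effect differed between diabetic and nondiabetic mice in 4 genes without LXA4 replicate 6, by the interaction test of edgeR. Among them, the log2 differences between the effects were 0.29 for Lmf1 (0.22 in diabetic and -0.07 in nondiabetic mice), 0.45 for Kdm4b (0.22 and -0.23) and -1.09 for Stra6l (-0.58 and 0.51).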

How the results depend on the processing

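All 42 genes kept their sign in every fit that tested them, over 50 settings, which their choice from mostly the same libraries makes likely in advance. The number called moved widely. DESeq2 called 199 genes (189 in the common response), voom 287 (279) and the fit without both libraries rich in structural RNA 219 (213). The 18 diabetic libraries alone gave 2 (2), Ngef and Egr1, and the 12 treated libraries as 1 group gave 2. Without LXA4 replicate 6 as well, the diabetic libraries alone gave 73 (72), DESeq2 283 (270) and the replicate block 61. With the replicate number as a block 20 genes were called (20), all among the 42. Egr1 was not among these 20 (adjusted p = 0.0524 by edgeR). GC content offsets gave 0 (0), and asking for an adjusted p under 0.05 in each compound alone gave 0 by edgeR. Leaving out each library gave 0 to 85 called genes (0 to 84 in the common response), and 0 to 182 for both with LXA4 replicate 6 out. The split of higher to lower calls was 34 to 8 in the reported fit, 185 to 102 with voom, 142 to 57 with DESeq2 and 133 to 86 without both rich libraries. The interaction count was 0 in the reported fit, 41 with DESeq2, 50 with voom, 109 with DESeq2 and 2 with GC content offsets without LXA4 replicate 6, and 0 to 4 over libraries left out. Treated diabetic against nondiabetic vehicle mice gave 4793 with voom, and without LXA4 replicate 6 it gave 4039 with GC content offsets, 3957 with DESeq2 and 3545 with the replicate block; leaving out each library gave 1079 to 3608. The sign turned for Arntl with voom (-0.48) and over libraries left out (-0.18 to 0.53; -0.30 to 0.53 with LXA4 replicate 6 also out). It turned for Nab2 without both rich libraries (-0.0003285), with GC content offsets (-0.050, and -0.049 without LXA4 replicate 6) and with the replicate block without LXA4 replicate 6 (-0.019); over libraries left out Nab2 ran from 0.00034 to 0.11, and from -0.029 to 0.033 with LXA4 replicate 6 also out. Ahr ran from 0.042 to 0.12 and from -0.0053 to 0.073. The causes were not tested. Deviations of same-numbered diabetic libraries had correlations of -0.20 to 0.22, with 6 of 18 over 0.1. Replicate 5 had the highest of these, at 0.17, 0.19 and 0.22. The replicate numbers were not taken as pairs in the reported fit. The shallowest library, at 8896193 counts, was LXA4 replicate 6.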

Other observations

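Among genes that passed only once LXA4 replicate 6 was left out, several were named after their values were seen. Cldn1, a tight junction claudin, was at -0.48 on the log2 scale (adjusted p = 0.0449), and Degs1, a desaturase that makes ceramide, at -0.24 (adjusted p = 0.0355). Ctnnb1, which encodes beta-catenin, was at -0.16 (adjusted p = 0.033). On the other side were Grin3a, a subunit of a glutamate receptor, at 0.86 (adjusted p = 0.0285), Unc5b, a netrin receptor, at 0.37 (adjusted p = 0.0233), and Spen, a transcriptional corepressor of Notch signalling, at 0.21 (adjusted p = 0.0191). Utp15, a factor of ribosomal RNA processing, was at -0.23 (adjusted p = 0.0127).

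Of 19 genes of Notch and PDGF signalling none passed by edgeR, and 5 were higher and 0 lower at an unadjusted p under 0.05, where 5.90% of all genes were higher. They were Notch1 (0.24), Notch2 (0.15), Notch4 (0.57), Jag2 (0.64) and Dll4 (0.37); without LXA4 replicate 6 Notch4 was at 0.27 and Jag2 at 0.40. Of 13 genes that are higher in female than in male kidney, none passed, and 4 were lower and 0 higher at an unadjusted p under 0.05, where 5.00% of all genes were lower, with Slc7a12, an amino acid transporter gene, at -1.58 (adjusted p = 0.209) and Hao2, a hydroxyacid oxidase gene, at -0.60 (adjusted p = 0.123). In Hao2, vehicle replicates 3, 4 and 5 stood at 264, 302 and 273 CPM, against 130 to 181 CPM in the other 3 vehicle libraries and 82.2 to 228 CPM in the treated.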
